A study of Mus musculus with 20 samples.

Results

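Hearts that lacked ACC2 were compared with hearts that kept it after all of the mice had eaten a high-fat diet (HFD), 5 iKO libraries against 5 WT libraries, which are 10 of the 20 libraries of the study. The iKO libraries carry the names RT11, RT13, RT15, RT17 and RT20 and the WT libraries RT12, RT14, RT16, RT18 and RT19, each from 1 male mouse. Every animal of both groups had floxed alleles of Acacb (ACC2 flox/flox). The iKO mice also carried MerCreMer, a Cre recombinase that tamoxifen activates, and the animals labelled WT were littermates without it. Both genotypes were injected with tamoxifen at 20 mg/kg on 5 days from 8 weeks of age, and the diet (Research Diets D12492) began 4 weeks after the last injection and lasted 16 weeks. The labels do not name the promoter that drives the Cre, and no group had the Cre without floxed alleles, so that effects of ACC2 loss and of the transgene cannot be told apart. The other 10 libraries, 5 of each genotype on chow, entered the estimate of the spread and the test of whether the genotype difference depended on diet. Poly(A) RNA of frozen left ventricle was sequenced as 100 nt single-end reads, and the deposited values are FPKM, which are fragments scaled to the length of the transcript and to the mapped reads of the library.

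ACC2 sits on the outer mitochondrial membrane and makes malonyl-CoA, which blocks CPT1, the transferase that passes long-chain fatty acids to carnitine for entry into mitochondria. The heart draws most of its energy from the oxidation of these fatty acids, and PPAR-alpha, a receptor that fatty acids activate, drives transcription of many of the enzymes. A separate programme, the integrated stress response, starts when kinases that sense amino acid shortage, mitochondrial faults or misfolded protein phosphorylate a translation initiation factor. Translation of the transcription factor ATF4 then rises, and ATF4 activates genes of amino acid synthesis and uptake, of mitochondrial folate metabolism and of further regulators.

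Acacb, the deleted gene, was measured first as the check of the labels. On HFD its level was 39.7, 35.8, 36.6, 41.9 and 34.9 FPKM in WT libraries RT12, RT14, RT16, RT18 and RT19 and 11.5, 10.6, 10.1, 9.05 and 11.9 FPKM in iKO libraries RT11, RT13, RT15, RT17 and RT20. All 5 iKO libraries lay far below all 5 WT libraries, and the iKO mean was 28.1% of the WT mean. Esr1, the oestrogen receptor gene whose ligand-binding part is built into MerCreMer, read 0.26 to 2.0 FPKM in WT and 421 to 1408 FPKM in iKO, a level that includes reads from the transgene. Every library thus matched the genotype of its label. Depth, taken from the spacing of low FPKM values, was about 23800000 to 31900000 reads assigned to genes in the WT libraries and 20200000 to 29550000 reads in the iKO libraries. Cardiomyocyte markers were high in all 10 libraries, with a summed level of 36660 to 45600 FPKM in WT and 38600 to 40950 FPKM in iKO, while markers of lymphocytes and of lung epithelium summed to at most 2.34 and 0.02 FPKM.

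The libraries of 3 iKO hearts stood apart in markers of fibroblasts, the matrix-forming cells of the heart. The 12 markers summed to 1464 FPKM in RT13, 1324 FPKM in RT15 and 1375 FPKM in RT17, against 726.5 and 715.4 FPKM in the iKO libraries RT11 and RT20 and 723.4 to 831.3 FPKM in WT. Dcn, the matrix proteoglycan decorin, read 466, 421 and 502 FPKM in RT13, RT15 and RT17 and 241 to 265 FPKM in the other 7 libraries. Col3a1 and Postn, which mark fibroblasts that lay down matrix, overlapped between all libraries (Col3a1 at 9.74 to 16.5 FPKM in iKO and 10.6 to 21.6 FPKM in WT). Macrophage markers were highest in the same 3 libraries, at 204 to 235 FPKM against 145 to 190 FPKM in the other 7. On chow both marker lists also lay higher in iKO, with median log2 fold changes of 0.44 for fibroblasts and 0.23 for macrophages. On HFD these medians were 0.34 and 0.18, and no fibroblast or macrophage marker was called on either diet. In bulk tissue more cells of a type and more RNA per cell cannot be told apart. Main results below are also given without these 3 libraries, a comparison of 2 iKO with 5 WT libraries that was added after the values were seen.

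**Figure D1:**
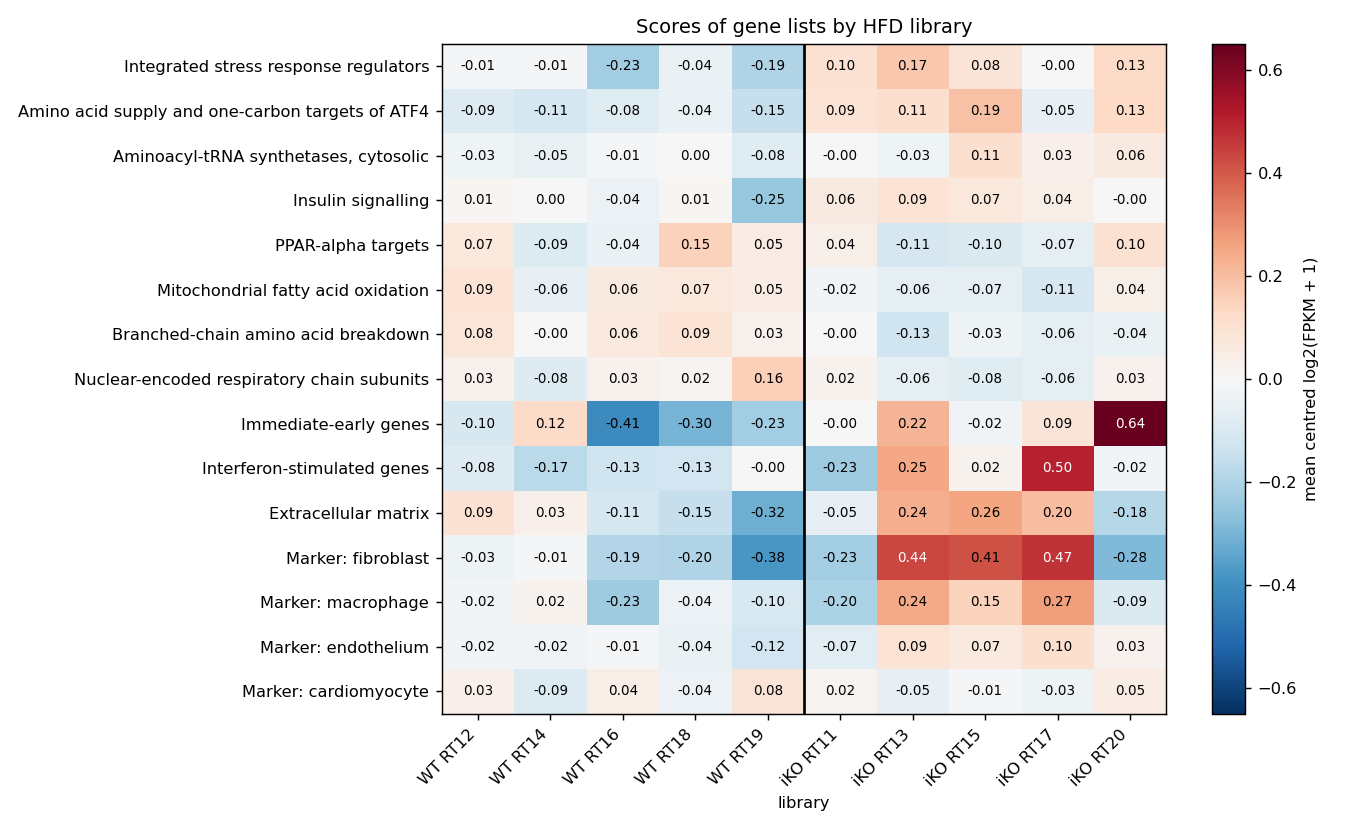
Scores of 15 gene lists (rows) in the 10 HFD libraries (columns, WT left of the line and iKO right of it), each the mean over the members of log2(FPKM + 1) after every gene was centred on its mean over the 10 libraries. Fibroblast markers reach 0.436, 0.414 and 0.472 in RT13, RT15 and RT17, and no other library is above -0.011.

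The comparison asked how the ventricular transcriptome differs without ACC2 when dietary fat is high. Of 12775 genes tested, limma called 13 higher (0.102%) and 9 lower (0.0705%) in iKO at a Benjamini-Hochberg adjusted p under 0.05. These fold changes are differences of group means on the log2(FPKM + 1) scale, which understates the change of low genes. Beyond Acacb and the transgene, 20 genes were called. The higher ones included Atf5, Mthfd2, Asns and Trib3 of the ATF4 programme and the insulin receptor substrate Irs2, and the lower ones Acaa2 and Decr1 of fatty acid oxidation, while most of the others shared no list. Apart from Esr1, Acacb and Mthfd2, every called change was under 1 on the log2 scale. All 5 iKO values lay outside the range of the 5 WT values for each called gene except Kcnip2. Over all genes tested, 357 (2.79%) had all 5 iKO values above the WT range and 57 (0.446%) all below it.

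The fold changes of all genes were shifted slightly upward, with a median of 0.06 and 74.4% of genes above 0. Scaling by median-of-ratios took the median to 0.0018, and 8 genes were then called higher and 17 lower, and upper-quartile scaling gave 8 higher and 13 lower. WT library RT19 had the lowest quality weight (0.36) and the lowest median-of-ratios factor (0.893) of the 20 libraries. Its score was -0.248 for insulin signalling (other WT libraries -0.037 to 0.014) and 0.156 for respiratory chain subunits (others -0.083 to 0.029). Without RT19 9 genes were called higher and 2 lower. The list medians below include RT19, and their values without it are not given here. The count of higher genes was 5 without RT12, 6 without RT15, RT16 or RT18, 7 without RT13 or RT17 and 8 without RT14. It was 11 without RT20 and 27 without RT11. The count of lower genes was 1 without RT12 or RT16, 2 without RT15, RT18 or RT19 and 3 without RT13 or RT17. It was 7 without RT20 and 12 without RT11 or RT14. Acacb, Esr1, Atf5, Prkg1, Mthfd2 and Irs2 passed the test in all 10 fits that left out 1 library. Without RT13, RT15 and RT17 together 4 of the 22 genes passed, namely Acacb, Esr1, Atf5 and Mthfd2, and all 22 kept their direction.

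**Figure D2:**
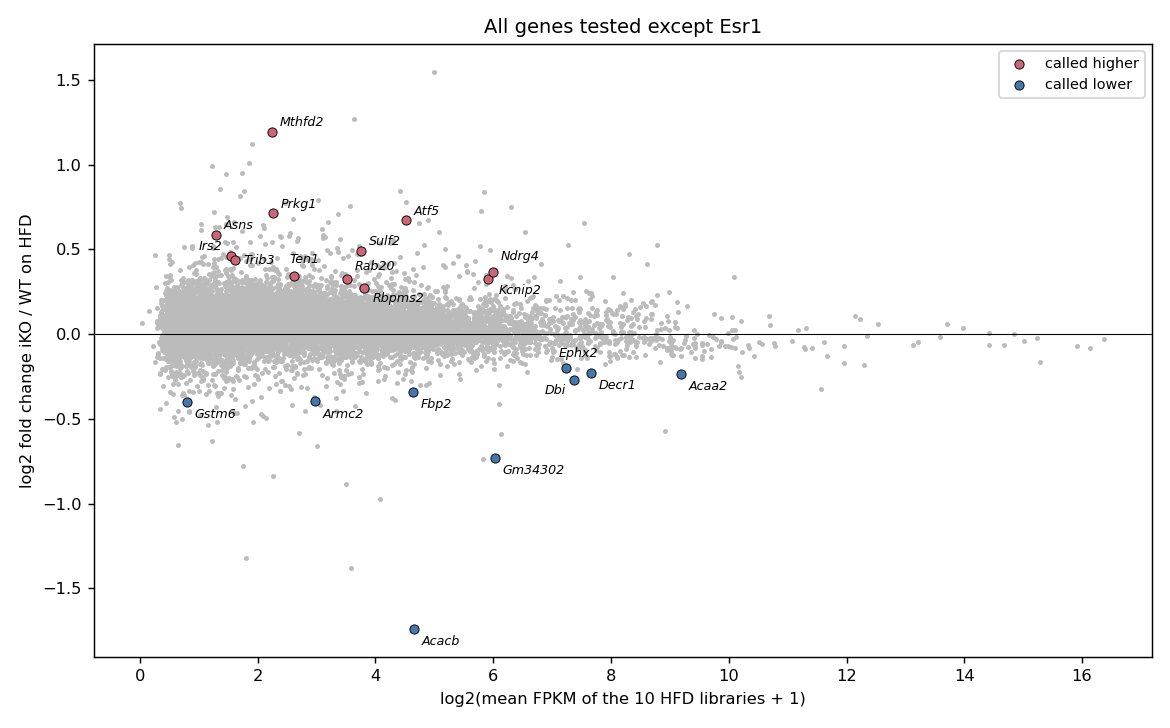
Log2 fold change of iKO against WT on HFD (vertical axis) over the mean level of the 10 HFD libraries on a log2 scale (horizontal axis) for every gene tested except Esr1, whose log2 fold change of 8.74 includes the transgene. Coloured points are called genes, from Mthfd2 at 1.19 to Acacb at -1.74, and grey points did not pass the test.

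Genes of the ATF4 programme made up 4 of the 13 increases. Mthfd2 encodes the mitochondrial enzyme that oxidises methylene-tetrahydrofolate in the one-carbon pathway, and is low in adult heart muscle. Its level in WT was 1.66, 1.35, 1.81, 2.34 and 1.98 FPKM in RT12, RT14, RT16, RT18 and RT19, and in iKO 5.72, 6.42, 7.21, 2.57 and 6.48 FPKM in RT11, RT13, RT15, RT17 and RT20. Every iKO library lay above WT, RT17 only just. The means differed 3.11-fold and the log2 fold change was 1.19 (SE 0.18, adjusted p = 0.00632 by limma). Without RT13, RT15 and RT17 it was 1.34 (SE 0.17, adjusted p = 0.000707), and with the 10 HFD libraries alone in the fit the adjusted p was 0.106.

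Atf5, a bZIP transcription factor that is itself an ATF4 target and takes part in the mitochondrial unfolded protein response, rose with less scatter. WT libraries read 16.6, 16.5, 16.2, 19.1 and 14.98 FPKM and iKO libraries 24.97, 28.6, 31.3, 21.3 and 30.6 FPKM, in the same order of libraries. The lowest iKO value, again RT17, exceeded the highest WT value of RT18. The log2 fold change was 0.67 (SE 0.09, adjusted p = 0.000984), and it passed the test under all of the alternative settings and without any single library. On the annotation Atf5 overlaps Nup62, a nuclear pore gene on the opposite strand at 6.11 FPKM, whose log2 fold change of 0.22 did not pass the test (adjusted p = 0.228). Whether counting used strand is not given in the sources used here, so reads from the shared stretch cannot be told apart.

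Asns, the enzyme that makes asparagine from aspartate and glutamine, stood at 0.93, 0.86, 0.71, 0.98 and 1.35 FPKM in WT and 1.71, 1.96, 2.49, 1.57 and 2.02 FPKM in iKO. The groups did not overlap, with RT19 the highest WT library and RT17 the lowest iKO library. Its log2 fold change was 0.59 (SE 0.11, adjusted p = 0.0331), and it lost its call without any one of RT12, RT13, RT14, RT15, RT16, RT18 or RT20 (highest adjusted p = 0.119). Trib3, a pseudokinase that ATF4 induces and that feeds back on it, read 1.33 to 1.83 FPKM in WT and 2.46, 2.40, 3.01, 2.67 and 1.99 FPKM in iKO. Here RT20 was the lowest iKO library and still above WT (log2 fold change 0.43, SE 0.09, adjusted p = 0.0343). The call of Trib3 ended without any single library other than RT11 and RT20 (highest adjusted p = 0.119). Neither Asns nor Trib3 was called with the HFD libraries alone, with a pseudocount of 0.1 or with no filter. Without RT13, RT15 and RT17 their log2 fold changes were 0.55 and 0.32 (adjusted p = 0.561 and 0.843 by limma).

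ATF4 binds composite C/EBP-ATF elements, whose core letters are TGATGNAA. The promoters of the called genes of this programme were searched for them on both strands, from 250 bases before to 50 bases after the RefSeq start (GRCm38.p6). Asns and Trib3 held 1 match each and are printed with the match in capitals, beside Mthfd2, which had the largest fold change of the 4 and a window without a match. The windows are chr6:7693160-7693459 for Asns, chr2:152344011-152344310 for Trib3 and chr6:83317555-83317854 for Mthfd2, all on the minus strand and written 5′ to 3′ along the gene.
Asns: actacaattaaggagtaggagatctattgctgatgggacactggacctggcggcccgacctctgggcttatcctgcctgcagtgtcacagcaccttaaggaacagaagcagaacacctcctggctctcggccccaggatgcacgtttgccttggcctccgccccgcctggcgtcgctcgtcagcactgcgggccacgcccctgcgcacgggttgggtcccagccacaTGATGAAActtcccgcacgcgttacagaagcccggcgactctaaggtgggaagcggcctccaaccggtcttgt
Trib3: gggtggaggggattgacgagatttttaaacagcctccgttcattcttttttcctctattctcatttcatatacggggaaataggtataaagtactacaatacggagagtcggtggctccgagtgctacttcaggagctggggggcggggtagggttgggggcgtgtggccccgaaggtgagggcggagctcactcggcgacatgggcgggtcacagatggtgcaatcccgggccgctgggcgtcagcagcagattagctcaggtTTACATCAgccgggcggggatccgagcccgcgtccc
Mthfd2: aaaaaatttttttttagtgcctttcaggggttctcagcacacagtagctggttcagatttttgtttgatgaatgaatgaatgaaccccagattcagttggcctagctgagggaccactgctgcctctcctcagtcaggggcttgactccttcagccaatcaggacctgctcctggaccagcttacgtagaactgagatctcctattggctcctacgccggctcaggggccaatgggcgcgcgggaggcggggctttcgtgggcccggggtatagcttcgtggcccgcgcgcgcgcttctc

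In Asns the match TGATGAAA lies on the gene's own strand with its first base at -23 from the start. In Trib3 the match lies on the opposite strand, so that TTACATCA is read along the gene, with its first base at +15. The same letters occur in 8 of 36 tested members of the ATF4 programme with a promoter in the table (22.2%) and in 1219 of all 27025 genes (4.51%). These members were listed as part of the ATF4 programme beforehand, so the higher share is no result about the iKO hearts. The members that hold it are Asns, Trib3, Atf3, Chac1, Nupr1, Slc1a4, Pycr1 and Got1, and of these Asns and Trib3 passed the test on HFD. Neither of the 2 windows of Atf5 held a match. A match is a description of the letters and not a measured site, and a window without one says nothing about binding elsewhere.

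Most other members of the programme did not pass the test. Of 18 tested regulators of the integrated stress response 2 rose and none fell, where 0.102% of all genes were called higher. Their fold changes lay above 0 in 16 of 18, against 74.4% of all genes, with a median log2 fold change of 0.19 against 0.06. Atf4 itself, which is controlled largely through translation, read 29.7 to 36.9 FPKM in WT and 36.1 to 44.3 FPKM in iKO and did not pass the test (log2 fold change 0.28, adjusted p = 0.164). Neither did Ddit3, the pro-apoptotic factor CHOP, at 0.30 (adjusted p = 0.271). Sesn2, a stress-induced inhibitor of mTORC1, had all 5 iKO libraries (0.99 to 1.25 FPKM) above the 5 WT libraries (0.66 to 0.91 FPKM) at an adjusted p of 0.203. Chac1, a glutathione-degrading enzyme often used as an ATF4 readout, overlapped fully, with 2.0 to 3.44 FPKM in WT and 1.49 to 3.46 FPKM in iKO.

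Among 23 tested genes of amino acid supply and one-carbon metabolism downstream of ATF4, Mthfd2 and Asns rose and none fell. Over all genes 0.102% were called higher. Fold changes lay above 0 in 18 of the 23, a share near the 74.4% of all genes. The median log2 fold change was 0.10, or 0.06 under median-of-ratios scaling. In 4 of the 23, which were Mthfd2, Asns, Slc1a5 and Aldh18a1, all iKO values exceeded the WT range, against 2.79% of all genes tested. Slc1a5, a glutamine transporter, reached 9.23, 8.62 and 9.91 FPKM in RT13, RT15 and RT17, the libraries with high fibroblast markers, and 5.95 and 6.0 FPKM in RT11 and RT20, against 4.57 to 5.67 FPKM in WT. Aldh18a1, which starts proline synthesis, read 2.14 to 2.91 FPKM in iKO and 1.68 to 2.10 FPKM in WT (log2 fold change 0.28, adjusted p = 0.198). Phgdh, the first enzyme of serine synthesis, lay higher in iKO (0.94 to 1.5 FPKM) than in WT (0.53 to 0.96 FPKM) but did not pass the test (adjusted p = 0.155). Its neighbours in the pathway differed little, with log2 fold changes of 0.07 for Psat1 and 0.03 for Shmt2. The medians were 0.19 for the regulators and 0.15 for amino acid supply without RT13, RT15 and RT17.

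One iKO heart was often the lowest in the genes of amino acid supply, though not in these genes alone. RT17 was the lowest iKO library in 14 of the 23 genes of amino acid supply (60.9%), whereas it was the lowest in 14.8% of all genes tested and in 4 of the 18 stress regulators. Besides Mthfd2 these included Slc7a5, a carrier of large neutral amino acids, at 1.19 FPKM in RT17 and 1.69 to 2.15 FPKM in the other 4 iKO libraries, and Aldh1l2, a mitochondrial folate enzyme, at 2.09 against 2.94 to 3.42 FPKM. The list's score was -0.054 in RT17 and 0.091 to 0.19 in the other 4, with WT between -0.148 and -0.041. RT17 also had the lowest Acacb level of the 10 HFD libraries. In Trib3 it was not low, and RT15 alone read higher. Low values of RT17 were not particular to amino acid supply. It was also the lowest iKO library in 15 of 25 genes of mitochondrial fatty acid oxidation and 9 of 19 of the tricarboxylic acid cycle. The same held for 10 of 15 genes that respond to glucocorticoids and FOXO factors. Other lists showed it less often, with 3 of 20 aminoacyl-tRNA synthetases and 3 of 25 genes of mitophagy and autophagy.

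Genes beside this programme that are often read with it gave no calls. Of 20 cytosolic aminoacyl-tRNA synthetases, which load amino acids onto their tRNAs, none passed the test, and 4 (Sars, Aars, Nars and Gars) had all iKO values above WT, against 2.79% of all genes. Aars read 7.13 to 7.62 FPKM in WT and 8.08 to 8.88 FPKM in iKO (log2 fold change 0.19, SE 0.06, adjusted p = 0.184). The 14 mitochondrial chaperones and proteases, targets of the mitochondrial unfolded protein response, lay between -0.03 and 0.09 with a median of 0.03. Under median-of-ratios scaling the medians of both lists were below 0, at -0.01 for the synthetases and -0.05 for the chaperones, and without RT13, RT15 and RT17 they were 0.07 and 0.05. Fgf21, a stress hormone of muscle and liver, reached at most 0.25 FPKM in any HFD library and was below the level needed for testing. Gdf15, another such hormone, read 0.28 to 0.78 FPKM in WT and 0.78 to 1.56 FPKM in iKO and did not pass the test (log2 fold change 0.51, adjusted p = 0.178).

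The 25 genes of mitophagy and autophagy had no call and a median of 0.05, which was -0.02 under median-of-ratios scaling and 0.06 without RT13, RT15 and RT17. Sqstm1, the autophagy receptor p62, read 118 to 131 FPKM in WT and 134 to 178 FPKM in iKO without overlap (log2 fold change 0.31, SE 0.07, adjusted p = 0.0624). Gabarapl1, which sits on autophagosome membranes, read 47.9 to 56.4 FPKM in WT and 59.5 to 80.0 FPKM in iKO (0.34, adjusted p = 0.110). Park2 and Pink1, which mark damaged mitochondria for removal, had log2 fold changes of 0.20 and -0.05. Just outside the threshold over all genes were Cd63, a membrane protein of late endosomes, and Bcap31, an endoplasmic reticulum chaperone, both with adjusted p = 0.0501 and with log2 fold changes of 0.34 and 0.22.

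**Figure D3:**
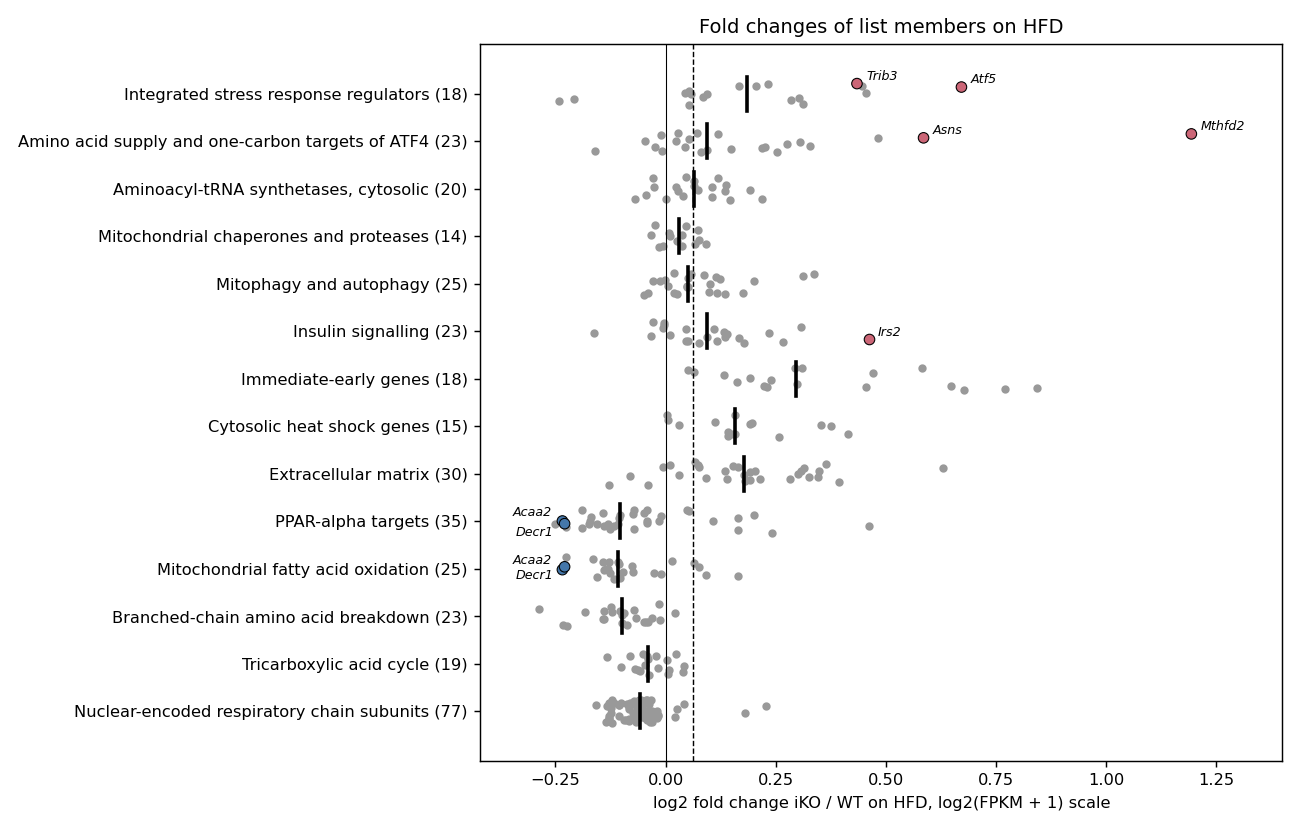
Log2 fold changes of iKO against WT on HFD for the tested members of 14 gene lists (number of members in brackets), with a thick bar at each list's median, a dashed line at the median of all genes (0.06) and large named points for called genes. Stress regulators centre at 0.19 with Atf5 and Trib3 to the right, and fatty acid oxidation centres at -0.11 with Acaa2 and Decr1 at the left end.

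Irs2, the adaptor that carries the signal from the insulin receptor to PI3 kinase, rose in iKO. Its level was 1.5, 1.66, 1.41, 1.48 and 1.25 FPKM in WT and 2.02, 2.63, 2.72, 2.32 and 2.27 FPKM in iKO, with no overlap (log2 fold change 0.46, SE 0.08, adjusted p = 0.00998). The adjusted p was 0.0639 with the 10 HFD libraries alone in the fit, and 0.628 without RT13, RT15 and RT17 with a log2 fold change of 0.36. Of 23 insulin signalling genes Irs2 alone passed the test, where 0.102% of all genes were called higher. In 3 of the 23 all iKO values lay above WT, against 2.79% of all genes. The median was 0.09 against 0.06 for all genes. It was 0.02 against 0.0018 under median-of-ratios scaling and 0.06 against 0.03 without RT13, RT15 and RT17. Irs1, the other main adaptor of heart muscle, had all iKO values (1.95 to 2.26 FPKM) above WT (1.10 to 1.69 FPKM) and did not pass (0.31, adjusted p = 0.110). The receptor gene Insr read 20.8 to 24.4 FPKM in iKO and 19.5 to 21.3 FPKM in WT apart from RT19 at 14.4 FPKM.

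Acaa2 and Decr1 of fatty acid oxidation fell in iKO. Acaa2, the thiolase that ends each round of beta-oxidation, read 667, 578, 634, 625 and 661 FPKM in WT and 563, 541, 522, 507 and 554 FPKM in iKO. The groups did not overlap, although RT14, the lowest WT library, and RT11, the highest iKO library, lay close together. The log2 fold change was -0.23 (SE 0.05, adjusted p = 0.0343). Decr1, the dienoyl-CoA reductase needed for polyunsaturated fatty acids, read 238, 201, 219, 217 and 219 FPKM in WT and 191, 190, 176, 178 and 197 FPKM in iKO, again with RT14 the lowest WT library (-0.23, SE 0.04, adjusted p = 0.0331). Both calls ended without any one of RT12, RT13, RT15, RT16, RT17, RT18 or RT19, and that of Acaa2 without RT20 too (highest adjusted p = 0.149 for Acaa2 and 0.140 for Decr1). Without RT13, RT15 and RT17 both log2 fold changes were smaller, at -0.18 for Acaa2 and -0.17 for Decr1 (adjusted p = 0.843 for each).

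Of 25 tested genes of mitochondrial fatty acid oxidation 2 fell and none rose, where 0.0705% of all genes were called lower. Fold changes lay below 0 in 20 of the 25, against 25.6% of all genes, and the median log2 fold change was -0.11 against 0.06. Under median-of-ratios scaling the median was -0.19 against 0.0018 for all genes. Hadhb, the beta subunit of the trifunctional protein, had all iKO values (1266 to 1355 FPKM) below WT (1376 to 1474 FPKM), and so did Acadm, the medium-chain acyl-CoA dehydrogenase, and Eci1, an enoyl-CoA isomerase, none of which passed the test (adjusted p = 0.110, 0.136 and 0.117). Together with Acaa2 and Decr1, 5 of the 25 genes lay wholly below WT, against 0.446% of all genes. No gene of the entry steps passed the test. Cpt1b, the muscle form of the malonyl-CoA-sensitive transferase, read 165 to 183 FPKM in WT and 165 to 188 FPKM in iKO (log2 fold change -0.01, SE 0.05), and Cpt1a, the liver form, had a log2 fold change of 0.17 (adjusted p = 0.328). Slc25a20, the carrier of acylcarnitines across the inner membrane, stood at -0.15 (adjusted p = 0.171), and Cpt2, which returns the acyl group to CoA, at -0.13 (adjusted p = 0.266).

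The libraries carried this difference unequally. RT17 was the lowest iKO library in 15 of the 25 oxidation genes and RT20 in none, and the list's score was -0.111 in RT17, 0.038 in RT20 and between -0.055 and 0.091 in WT. Without RT13, RT15 and RT17 the median was -0.06, with 18 of 25 below 0 and no call. The 35 tested PPAR-alpha targets had a median of -0.10 (-0.18 under median-of-ratios scaling), with 27 below 0. Of these targets 2 were called lower, against 0.0705% of all genes, the same Acaa2 and Decr1, which belong to both lists. Without the 3 libraries their median was -0.02, with 18 below 0, while the median of all genes was 0.03. These are the libraries with high fibroblast and macrophage markers, and the part of those markers in the result was not tested.

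Other named PPAR-alpha targets did not pass the test. Pdk4, the kinase that switches off pyruvate dehydrogenase, ranged from 138 to 450 FPKM in WT and from 235 to 501 FPKM in iKO, and Ucp3, an inner-membrane carrier induced by fatty acids, from 24.0 to 47.1 and from 20.5 to 45.9 FPKM. Angptl4, a secreted inhibitor of lipoprotein lipase, had a log2 fold change of 0.46 with wide scatter (SE 0.30, adjusted p = 0.455). Fabp3, the fatty acid-binding protein of muscle, lay wholly lower in iKO at 3596 to 3877 FPKM against 3902 to 4597 FPKM (-0.17, adjusted p = 0.105). Lpl, the lipase that frees fatty acids from lipoproteins, had a log2 fold change of -0.19 (adjusted p = 0.117).

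The malonyl-CoA enzymes other than ACC2 gave no call. Acaca, which encodes the cytosolic carboxylase ACC1, read 1.31 to 2.05 FPKM in WT and 1.89 to 2.03 FPKM in iKO (log2 fold change 0.19, adjusted p = 0.294), a level far below that of Acacb on the same per-length scale. Mlycd, which degrades malonyl-CoA, read 38.1 to 48.4 and 36.8 to 45.7 FPKM (-0.04, adjusted p = 0.818). In all 16 genes of malonyl-CoA and fatty acid synthesis Acacb alone passed the test.

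The genotype difference of the oxidation genes was set beside that in mice on chow, which rests on 10 other hearts. On chow 44 genes were called higher (0.344%) and 92 lower (0.72%) in iKO. There 16 of the 25 oxidation genes were lower with a list median of -0.24, and 25 of the 35 PPAR-alpha targets with a median of -0.32. In 22 of 25 oxidation genes and in 35 of 35 PPAR-alpha targets the fold change was less negative or more positive on HFD than on chow, against 55.4% of all genes. The test of this difference gene by gene called none of them. For Acaa2 the interaction had adjusted p = 0.203, for Decr1 0.174 and for Cpt1b 0.278. Of the 92 genes called lower on chow 83 lay below 0 on HFD, where 25.6% of all genes did, with a median of -0.13, and of the 44 called higher 43 lay above 0.

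**Figure D4:**
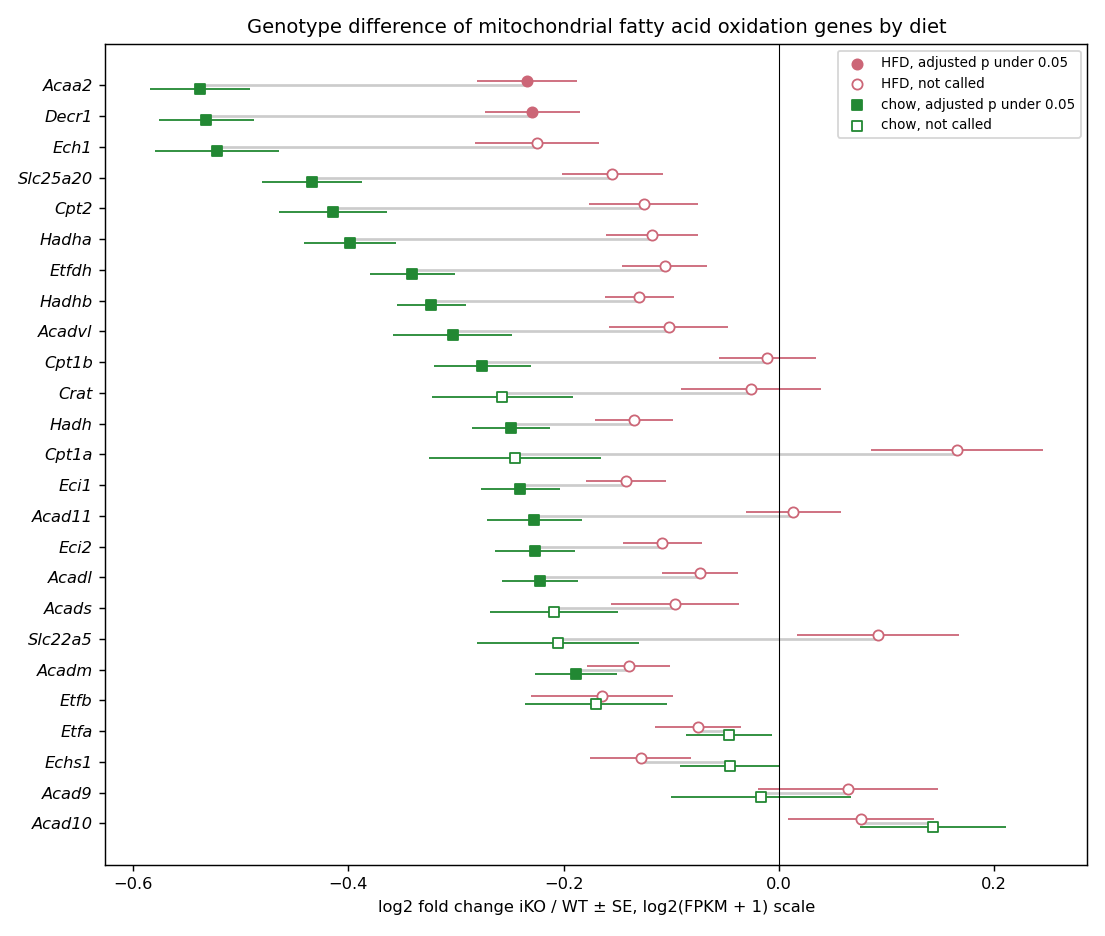
Log2 fold change of iKO against WT with its SE for the 25 genes of mitochondrial fatty acid oxidation on HFD (circles) and on chow (squares), with filled symbols for called genes. On HFD Acaa2 and Decr1 are filled, and on chow 16 genes are, down to -0.54 for Acaa2.

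The interaction test called 4 of 12775 genes (0.0313%), Fbp2, Scd4, Vwa8 and Scn4b, each less reduced in iKO on HFD than on chow. Fbp2, the muscle fructose bisphosphatase that acts in glycogen synthesis from lactate, read 22.7 to 29.2 FPKM in WT and 20.4 to 22.5 FPKM in iKO on HFD, wholly lower (-0.34, SE 0.06, adjusted p = 0.0331), and its log2 fold change on chow was -0.89. The interaction was 0.55 (SE 0.09, adjusted p = 0.0345), and without RT13, RT15 and RT17 the log2 fold change on HFD was -0.31 (adjusted p = 0.631). Scd4, a stearoyl-CoA desaturase of heart, had a log2 fold change of -0.27 on HFD that did not pass the test and -1.26 on chow (interaction 0.99, adjusted p = 0.0345). Scn4b, a beta subunit of voltage-gated sodium channels, stood at -0.27 and -1.13 (0.86, adjusted p = 0.0466). Vwa8, a mitochondrial ATPase-like protein, stood at -0.11 and -0.54 (0.43, adjusted p = 0.0466). No interaction was called without RT13, RT15, RT16, RT18, RT19 or RT20, 1 without RT14 and 2 without RT12, and none under either scaling.

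The called genes of the stress programme had small fold changes on chow, and their interaction was not called. Mthfd2 stood at 0.834 FPKM ± 0.244 (SD, n = 5) in WT and 0.876 ± 0.419 in iKO on chow, and its interaction was 1.18 (SE 0.26, adjusted p = 0.232). For Atf5 the log2 fold change on chow was 0.17 and the interaction 0.50 (adjusted p = 0.399), for Asns 0.09 and 0.50 (adjusted p = 0.901), and for Trib3 0.08 and 0.35 (adjusted p = 0.989). A difference between the diets was thus not shown for these genes. Of the 22 genes called on HFD 14 were called on chow in the same direction, 5 higher and 9 lower, and all 22 had the same sign on both diets.

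Breakdown of branched-chain amino acids, which feeds carbon from leucine, isoleucine and valine into mitochondrial metabolism, lay lower in iKO without a called gene. Of 23 tested genes 22 had fold changes below 0, against 25.6% of all genes, with a median of -0.10, or -0.18 under median-of-ratios scaling. In 4 of them all iKO values lay below WT, against 0.446% of all genes. Bckdhb, a subunit of the dehydrogenase that commits the pathway, read 20.7 to 22.4 FPKM in WT and 18.7, 15.1, 18.5, 17.4 and 18.8 FPKM in iKO (log2 fold change -0.29, SE 0.07, adjusted p = 0.104). Ivd, which acts on the leucine branch, read 96.3 to 107 and 76.6 to 94.9 FPKM (-0.22, adjusted p = 0.117). Acat1, a thiolase of isoleucine and ketone metabolism, stood at -0.14 (adjusted p = 0.117), and Hibadh of the valine branch at -0.10 (adjusted p = 0.206). Without RT13, RT15 and RT17 the median was -0.07 with 22 of 23 still below 0.

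Genes of the respiratory chain and the tricarboxylic acid cycle also lay mostly below 0 in the main fit. Of 77 nuclear-encoded subunits of the respiratory chain 72 lay below 0 with a median of -0.06 and no call, and without the 3 libraries 48 did with a median of -0.01. Cox8a, a subunit of cytochrome oxidase, went the other way, with 149 to 166 FPKM in iKO and 127 to 147 FPKM in WT (log2 fold change 0.23, adjusted p = 0.146). The 19 genes of the tricarboxylic acid cycle had a median of -0.04 and the 13 mitochondrially encoded genes -0.03, with no call in either. Without the 3 libraries the median of the cycle was 0.008, with 9 of 19 below 0. That of the mitochondrially encoded genes was then -0.009 and that of all genes 0.03. With all libraries, median-of-ratios scaling took the median of all genes from 0.06 to 0.0018. Under it the medians were -0.14 for the respiratory chain and -0.12 for the cycle.

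The remaining called genes belonged to no single pathway. Among the lower ones Ephx2, the soluble epoxide hydrolase that inactivates lipid epoxides, read 149 to 173 FPKM in WT and 136 to 146 FPKM in iKO (log2 fold change -0.20, SE 0.04, adjusted p = 0.0331). Dbi, the acyl-CoA-binding protein, read 163 to 195 and 135 to 162 FPKM (-0.27, SE 0.05, adjusted p = 0.0343). Gstm6, a glutathione transferase of a gene family with very similar members whose reads may be shared, read 0.81 to 1.07 and 0.43 to 0.60 FPKM (-0.40, adjusted p = 0.0331). Armc2, an armadillo-repeat gene known for its part in sperm flagella, read 7.28 to 8.54 and 5.18 to 6.63 FPKM (-0.40, adjusted p = 0.0127). Gm34302 on chromosome 3, a predicted gene, read 74.7 to 88.3 FPKM in WT and 57.5, 44.1, 42.9, 58.3 and 40.2 FPKM in iKO (-0.73, SE 0.14, adjusted p = 0.0343). All of these were also called lower on chow. None passed the test without RT13, RT15 and RT17, with log2 fold changes of -0.18 for Ephx2, -0.25 for Dbi, -0.32 for Gstm6, -0.44 for Armc2 and -0.73 for Gm34302.

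Prkg1, a cGMP-dependent protein kinase, had the smallest adjusted p among the higher genes after Esr1 and Atf5. WT libraries read 2.75, 2.72, 2.59, 2.92 and 2.12 FPKM and iKO libraries 4.76, 6.70, 4.28, 4.69 and 4.43 FPKM, all above WT with RT13 the highest (log2 fold change 0.71, SE 0.10, adjusted p = 0.00175). Its log2 fold change was 0.63 (adjusted p = 0.0739) without RT13, RT15 and RT17. Prkg1 overlaps Cstf2t, a gene on the opposite strand at 8.14 FPKM, and reads of the shared stretch cannot be told apart. Prkg1 lies on chromosome 19 near A1cf, which helps to edit apolipoprotein B mRNA. A1cf is listed at 0 in all 5 WT libraries and at 0.56, 0.39, 0.25, 0.11 and 0.66 FPKM in the iKO libraries (adjusted p = 0.104). This p depended on the pseudocount, at 0.00178 with 0.1 and 0.0371 with 0.5, and was 0.0292 with quality weights, and A1cf was called higher on chow. Of 11 tested genes on the list of A1cf and its neighbours Prkg1 alone was called, where 0.102% of all genes were called higher. In 2 of them all iKO values lay above WT, against 2.79% of all genes. The median was 0.13 against 0.06 for all genes, or 0.06 against 0.0018 under median-of-ratios scaling. On chow 3 of them were called higher, among them Rnls (log2 fold change 0.51, adjusted p = 0.00809 by limma). On HFD Rnls stood at 0.26 (adjusted p = 0.245). Effects of the transgene and of ACC2 loss on these genes cannot be told apart.

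Other higher genes were Rab20, Ndrg4, Sulf2, Kcnip2, Ten1 and Rbpms2. Rab20, a small GTPase of endosomes, read 7.88 to 10.2 FPKM in WT and 10.95 to 13.02 FPKM in iKO (log2 fold change 0.33, adjusted p = 0.0331). Ndrg4, a gene of cardiomyocyte growth, read 51.8 to 63.8 and 65.3 to 84.2 FPKM (0.36, adjusted p = 0.0331). Kcnip2, the channel-interacting protein that sets the transient outward potassium current, read 48.0 to 57.8 and 57.3 to 70.8 FPKM with RT11 inside the WT range (0.32, adjusted p = 0.0343). Sulf2, a heparan sulphatase of the matrix, reached 17.1, 17.2 and 15.4 FPKM in RT13, RT15 and RT17, the libraries with high fibroblast markers, and 12.83 and 12.04 FPKM in RT11 and RT20, against 9.37 to 11.2 FPKM in WT (0.49, adjusted p = 0.0343). Without those libraries its log2 fold change was 0.26. Sulf2 and Rab20 also overlap genes on the opposite strand, Ncoa3 at 5.58 FPKM and E230013L22Rik at 5.12 FPKM. Ten1, a telomere protein gene, had a log2 fold change of 0.35, which is uncertain because it is not stated whether counting used strand. Rbpms2, an RNA-binding protein of cardiomyocytes, stood at 0.27. Under both scalings Rab20, Ndrg4, Kcnip2, Ten1 and Rbpms2 lost their calls.

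Calls of these smaller changes also ended when any of several single libraries was left out, while their fold changes kept their direction. The log2 fold change ranged over the 10 fits from 0.255 to 0.299 for Rbpms2 and from -0.80 to -0.67 for Gm34302. Fbp2, Gstm6, Ephx2 and Sulf2 lost their calls without any one of RT12, RT13, RT15, RT16, RT17, RT18 or RT19, with highest adjusted p of 0.114, 0.114, 0.110 and 0.128. Armc2 lost its call without RT12, RT16 or RT18 (highest adjusted p = 0.0616) and Dbi without RT11, RT12, RT15, RT16, RT17 or RT19 (0.149). Rab20 lost it without RT11, RT12, RT13, RT14, RT16, RT17 or RT18 (highest adjusted p = 0.0992) and Ndrg4 without RT12, RT15, RT16, RT17, RT18 or RT19 (0.117). Gm34302 kept its call without RT11 or RT17, Kcnip2 without RT11 or RT18, Ten1 without RT11 and Rbpms2 without RT19, and each lost it without any other library (highest adjusted p between 0.144 and 0.149).

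**Figure D5:**
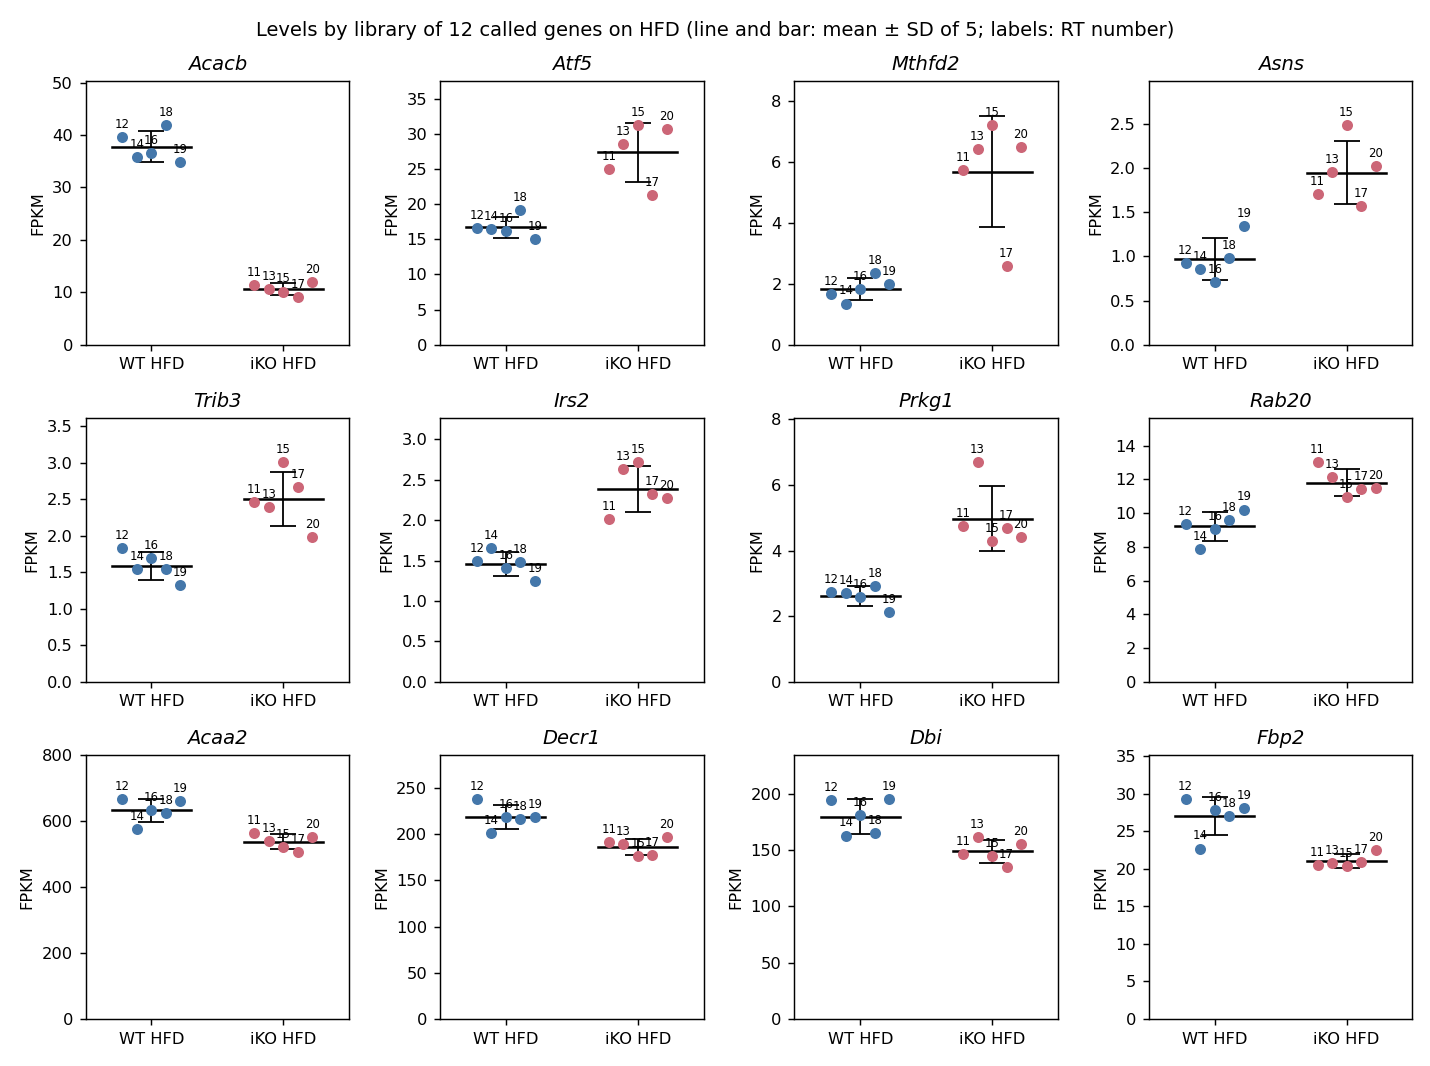
FPKM of 12 called genes in the 5 WT and 5 iKO libraries on HFD, with RT numbers beside the points and lines and bars for the mean and SD of each group. Mthfd2 shows RT17 at 2.57 FPKM beneath the other iKO libraries at 5.72 to 7.21 FPKM, and Acaa2 and Decr1 show groups that nearly touch.

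Markers of cardiac stress did not pass the test, and their spread between mice was wide. Of 15 tested genes of cardiac stress and hypertrophy 13 lay above 0, against 74.4% of all genes, with a median of 0.27, or 0.13 without RT13, RT15 and RT17. Nppa, the atrial natriuretic peptide, ranged from 20.0 to 68.4 FPKM in WT and from 40.3 to 114 FPKM in iKO (log2 fold change 0.84, SE 0.47, adjusted p = 0.394). Nppb, the B-type peptide, ranged from 36.8 to 76.0 and from 71.6 to 154 FPKM (0.75, SE 0.31, adjusted p = 0.284). Myh7, the slow myosin of stressed ventricle, read 10.56 to 16.99 FPKM in WT and 36.8 and 37.8 FPKM in RT15 and RT17 against 15.2 to 24.8 FPKM in the other 3 iKO libraries (0.85, adjusted p = 0.299). Nmrk2, a muscle kinase of NAD synthesis that rises in failing hearts, read 0.83 to 1.89 FPKM in WT and 1.39 to 5.99 FPKM in iKO (0.82, adjusted p = 0.193).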

How the data were processed

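RNA of 20 mouse left ventricles was measured by poly(A) RNA-seq. The authors deposited 1 FPKM value per gene and library, and the submitters' processing notes name Bowtie2, RSEM, DESeq2 and mm9 with no roles. Of 25052 listed gene IDs, 24938 occur in GENCODE M21, an annotation of GRCm38, so no gene coordinates from it are printed. Promoters come from RefSeq (GRCm38.p6). Genes at 0.5 FPKM or more in at least 5 of 20 libraries were tested (12775) on log2(FPKM + 1) with limma 3.58.1 in R 4.3.3, using trend and robust settings, 4 group means over all 20 libraries, and Benjamini-Hochberg adjustment at 0.05. The diet test is the interaction term. The approach was tested on simulated data. Depth was estimated from steps between low FPKM values. Between 55.2% and 79.4% of these fell within 0.05 of a whole read, so no count test was run. Within HFD, library correlations were 0.987 to 0.995 across genes.

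Alternatives were other pseudocounts, filters, scalings and weights, the HFD libraries alone, and each HFD library left out. The members and gene lists were chosen with earlier results of these data known. Named genes were those called on HFD, up to 3 members per list with the smallest p, a set of pathway genes, and the genes with a called interaction. List members outside this rule, with Cd63, Bcap31 and Nup62, were chosen after their values were seen. Mice were separate animals, 5 per group, and no column of per-sample values was left unmapped. A gene withheld for evaluation is not reported here.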

Additional observations from a re-analysis of the deposited data

Results flagged for a closer look

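Among 202 groups of 5 libraries checked for 101 genes named in the text, 13 held 1 library far from the other 4 by Dixon's test, where chance alone gives about 1 in 20. In WT these were RT19 for Nars (21.05 FPKM), Insr (14.39 FPKM) and Oasl2 (2.14 FPKM), RT14 for Ndrg4 (63.82 FPKM) and Atf3 (2.29 FPKM), and RT18 for Cpt1a (14.41 FPKM). In iKO they were RT13 for Prkg1 (6.70 FPKM), RT11 for Aars (8.08 FPKM), RT15 for Nars (26.09 FPKM) and Ten1 (6.93 FPKM), RT20 for Fbp2 (22.54 FPKM) and Col3a1 (9.74 FPKM), and RT17 for Oasl2 (3.63 FPKM).

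The interaction term called a genotype difference that depended on diet for 4 genes in the main fit. Of 19 alternative settings the call was kept in 9 for Fbp2, 8 for Scd4, 8 for Vwa8 and 6 for Scn4b. On the log2 scale the difference on HFD exceeded that on chow by 0.5495 for Fbp2, 0.9866 for Scd4, 0.4292 for Vwa8 and 0.8559 for Scn4b.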

How the results depend on the processing

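No paired analysis was possible because the groups share no replicate numbers. With the HFD libraries alone 3 genes were called higher and 2 lower, and with no filter 5 and 2. Median-of-ratios scaling gave 8 higher and 17 lower, upper-quartile scaling 8 higher, and library quality weights 67 higher and 28 lower. Interaction calls numbered 0 with no filter and under both scalings. Leaving out 1 library gave 5 to 27 genes higher, 1 to 12 lower and 0 to 4 interactions. Leaving out RT13, RT15 and RT17, chosen after seeing the data, gave 3 higher, 1 lower and 2 interactions. Over 20 settings and the 22 called genes, 264 of 440 values kept their call, 176 lost it and 0 changed direction. The cause was not tested. FPKM values carry no counts, so no counting intervals are given, and genes near 0.5 FPKM rest on few reads.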

Other observations

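Several groups of genes that respond to acute stimuli lay above 0 in iKO on HFD without a called member. All 18 tested immediate-early genes did, with a median log2 fold change of 0.30, and all 15 cytosolic heat shock genes, with a median of 0.16, where 74.4% of all genes lay above 0. Without RT13, RT15 and RT17 the medians were 0.41 and 0.14. RT20 had the highest score for immediate-early genes (0.644) and RT16 the lowest (-0.415). Interferon-stimulated genes had a median of 0.21 with 18 of 19 above 0, and of -0.01 without RT13, RT15 and RT17. Extracellular matrix genes had a median of 0.18 with 26 of 30 above 0, and of -0.05 without those libraries.

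Ppargc1a, the coactivator PGC-1 alpha, read 70.6 and 74.3 FPKM in RT11 and RT13 and 21.1 to 30.7 FPKM in the other 3 iKO libraries, against 19.4 to 33.9 FPKM in WT (log2 fold change 0.50, adjusted p = 0.420 by limma). Nr4a3, a nuclear receptor among the immediate-early genes, was high in the same libraries, at 5.87 and 8.02 FPKM against 1.17 to 1.88 FPKM in the other 3 and 0.57 to 2.0 FPKM in WT (0.84, adjusted p = 0.274).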
